A study of Ovis aries with 15 samples.

Results

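The genes described here were the 10 components of the mTOR pathway MTOR, RPTOR, RICTOR, TSC1, TSC2, RHEB, DDIT4, DEPTOR, EIF4EBP1 and RPS6KB1. They were taken by symbol from the 24691 features of a sheep gene table. mTOR is a protein kinase that joins growth factor, energy and amino acid supply to protein synthesis. With RPTOR it forms mTORC1, which phosphorylates the translational repressor encoded by EIF4EBP1 and the ribosomal protein S6 kinase encoded by RPS6KB1, and with RICTOR it forms mTORC2, which phosphorylates AKT. TSC1 and TSC2 hold the small GTPase RHEB, the activator of mTORC1, in its inactive form, DDIT4 acts through the TSC complex to lower mTORC1 activity under stress, and DEPTOR binds and inhibits mTOR. In the mammary gland the pathway is known for its part in milk protein synthesis. The activity of these proteins is set largely by phosphorylation, which mRNA abundance does not read.

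Expression was measured by RNA-seq in mammary parenchyma taken by needle biopsy from 2-year-old Romney ewes in their first pregnancy. RNA of several ewes was pooled for each of 15 libraries, 9 from late pregnancy (day 135 of gestation) and 6 from lactation (day 15 post partum). All ewes were reared and fed alike, and they differed in the pasture their own dams had received in early gestation, which was sub-maintenance (LM), maintenance (MM) or ad libitum (HM), followed by maintenance in every group. Each dam nutrition group held 3 late pregnancy pools and 2 lactation pools. The methods describe ewes sampled in late pregnancy and again in lactation, so the same ewes can stand on both sides of the comparison. The labels do not say which ewes entered which pool, and the main tests between states treat the pools as independent. The methods and the labels differ in the number of ewes given for a lactation pool, and a pool gives no measure of the spread between single ewes. p-values here therefore measure the spread between pools.

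Late pregnancy libraries held between 6471237 and 16898986 counted reads and lactation libraries between 9014506 and 24001031. Reads of the milk protein genes BLG, LALBA, GLYCAM1, CSN1S1, CSN1S2, CSN2 and CSN3 made up 13.7 to 23.4% of these in late pregnancy and 71.3 to 75.8% in lactation, so other genes shared a smaller part of each lactation library. Values were therefore scaled by TMM, which sets most genes to a common level, and are given as CPM (read counts relative to the scaled total of the library). Change means the log2 ratio of lactation over late pregnancy, and its median over the 13345 genes tested was -0.03. The library from HM pool 1 in lactation stood apart on the second principal component (23.7, the other libraries -8.04 to 2.54), and 13.2% of its reads lay outside exons, against 5.85 to 6.68% in the other lactation libraries. Without it, the same numbers of members were called higher (5) and lower (1). Of the marker genes of luminal epithelium, 4 of 6 were higher in lactation and 0 lower, with a summed level of 1417 to 1736 CPM in late pregnancy and 2290 to 2551 CPM in lactation. Fibroblast markers were lower for 5 of 6 (1311 to 2092 CPM against 618.5 to 997.5 CPM), T cell markers for 4 of 4 (35.6 to 58.1 CPM against 11.7 to 17.9 CPM), macrophage markers for 3 of 4 (99.9 to 132.3 CPM against 49.1 to 72.5 CPM) and endothelial markers for 3 of 4 (187.1 to 255.8 CPM against 132.1 to 186.7 CPM). Myoepithelial markers were split, 2 higher and 2 lower of 5, and B and plasma cell markers likewise, 1 higher and 1 lower of 2 tested. None of the 3 adipocyte markers tested was called, and 3 of the 5 found were at 0 reads in at least 1 library. In a bulk biopsy fewer cells of a type and less RNA per cell cannot be told apart, and the part of these cell type differences in the results below was not tested.

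The members lay on 9 chromosomes, with RPTOR and RPS6KB1 both on chromosome 11. In the coordinates of the deposited table, MTOR spanned 40535553 to 40657720 of chromosome 12 with 57 annotated exons, RPTOR 50829317 to 51149753 of chromosome 11 with 34 exons, and RICTOR 35296453 to 35417926 of chromosome 16 with 39 exons. TSC1 lay at 3884125 to 3932186 of chromosome 3, TSC2 at 1575200 to 1604599 of chromosome 24 and RHEB at 113405934 to 113425607 of chromosome 4. DDIT4 was the shortest gene, at 28192235 to 28194326 of chromosome 25, and DEPTOR lay at 93797947 to 93894099 of chromosome 9. EIF4EBP1 spanned 31887397 to 31911617 of chromosome 26 with 3 exons and RPS6KB1 10402383 to 10433500 of chromosome 11 with 15 exons. The labels give the assembly as Oar 3.1 and the methods give another version number, so the exact version behind these positions is not settled. The number of uniquely placed exon reads equalled the total for every member.

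All members but DEPTOR could be tested. Between the states, with TMM scaling, 5 of the 9 were higher in lactation (MTOR, RPTOR, TSC1, RHEB and DDIT4, all of which turned lower with library size alone). EIF4EBP1 was lower under every scaling tried, and 3 members did not pass the test (RICTOR, TSC2 and RPS6KB1). Over all genes tested, 68.4% were called at an adjusted p under 0.05, with 33.1% higher and 35.2% lower, so the number of members called was close to that background. For 4 members (MTOR, RPTOR, RHEB and EIF4EBP1) the ranges of the states did not overlap, which held for 40.2% of all genes tested. The median change of the 9 members was 0.32.

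**Figure D1:**
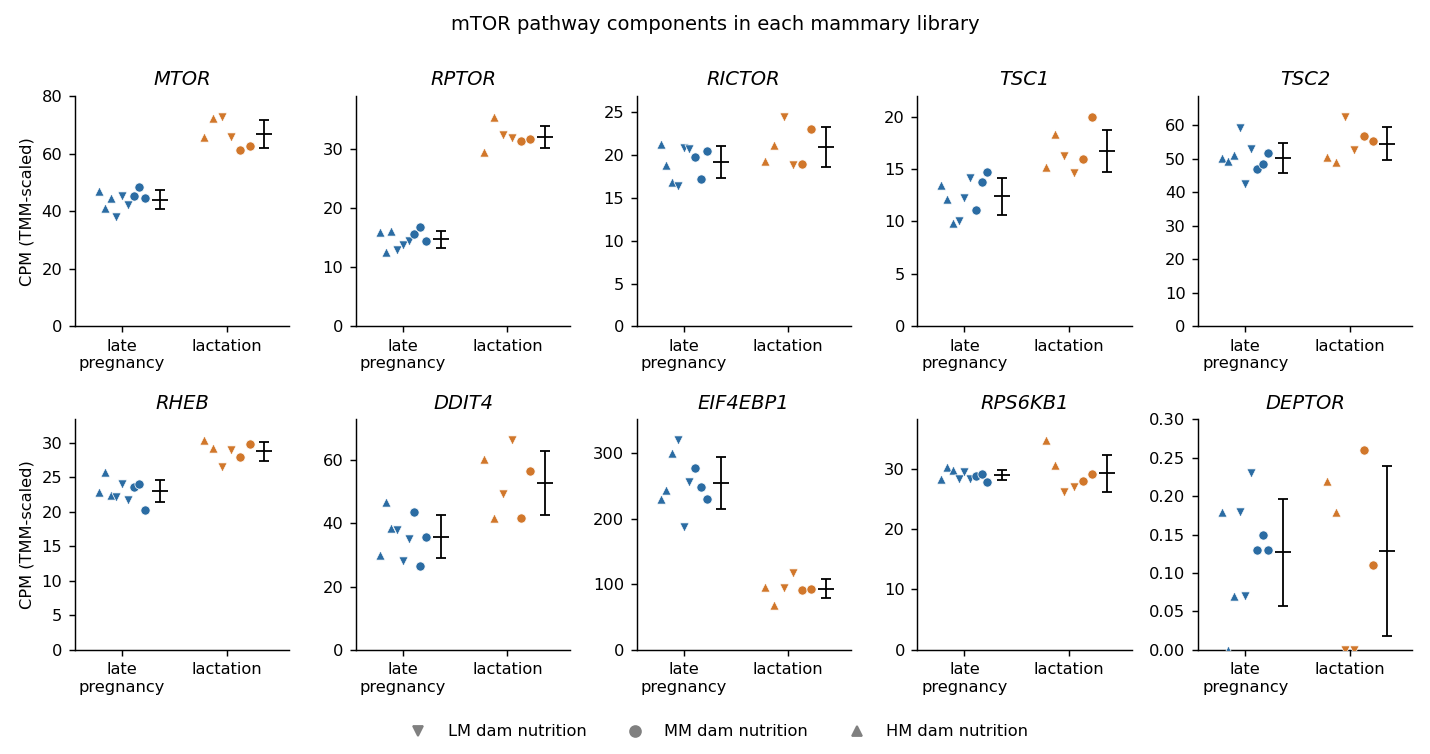
CPM (TMM-scaled, linear axis from 0) of each member in each library, with the mean and SD of each state as bars beside the points and marker shape showing dam nutrition. The 6 lactation points of MTOR and RPTOR lie above all 9 late pregnancy points, those of EIF4EBP1 lie below them, and the panel of DEPTOR spans less than 0.3 CPM.

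The kinase itself and the mTORC1 subunit rose. MTOR was at 38.0 CPM in the lowest, 44.6 CPM in the median and 48.6 CPM in the highest late pregnancy library, and at 61.3, 65.9 and 72.8 CPM in lactation. Every lactation library thus exceeded every late pregnancy library. The means were 44.1 ± 3.22 CPM (SD, n = 9) and 66.9 ± 4.81 CPM (SD, n = 6), and the change was 0.60 ± 0.06 (SE), or 1.51-fold (edgeR quasi-likelihood F-test, Benjamini-Hochberg adjusted p = 2.1e-08).

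RPTOR, which presents substrates to the kinase, showed the largest rise among the members. Its late pregnancy libraries ran from 12.5 CPM through a median of 14.5 CPM to 16.7 CPM, and its lactation libraries from 29.5 CPM through 31.7 CPM to 35.3 CPM. The lowest lactation library was thus far above the highest of late pregnancy. The change was 1.12 ± 0.07 (SE), or 2.17-fold (edgeR adjusted p = 2.1e-11). RICTOR, the defining subunit of mTORC2, was at 16.4, 19.7 and 21.3 CPM in the lowest, median and highest late pregnancy library and at 18.8, 20.2 and 24.4 CPM in lactation. Its ranges overlapped between 18.8 and 21.3 CPM, and its change of 0.13 ± 0.08 (SE) did not pass the test (edgeR adjusted p = 0.156), with a 95% interval of -0.03 to 0.29. limma on the quantile-normalized values did call RICTOR, at a change of 0.15 (adjusted p = 0.0445).

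The difference between RPTOR and RICTOR was also read as a ratio within each library, which scaling by a single factor per library cannot move. Reads per kilobase of exon of RPTOR over those of RICTOR stood at 0.848 to 1.26 in late pregnancy, with a median of 0.961, and at 1.70 to 2.17 in lactation, with a median of 2.05. The states did not overlap, and the mean log2 ratio was higher in lactation by 1.00 (SD 0.21 in late pregnancy and 0.15 in lactation). The exact two-sided permutation test gave p = 0.0002, the smallest that this test can give with 6 libraries against 9, and 0.0004 after Benjamini-Hochberg adjustment over the 4 ratios examined.

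Among the members upstream of mTORC1, the changes of TSC1, TSC2 and RHEB were smaller than that of MTOR (0.60). The change of DDIT4 (0.55) was close to that of MTOR, and these differences from MTOR were not tested. TSC1, the stabilising subunit of the TSC complex, was at 9.83, 12.2 and 14.7 CPM in the lowest, median and highest late pregnancy library and at 14.7, 16.1 and 19.9 CPM in lactation, where the lowest library lay just under the highest of late pregnancy. It rose by 0.44 ± 0.10 (SE), or 1.36-fold (edgeR adjusted p = 7.3e-04). TSC2, which carries the GTPase-activating domain, was at 42.5, 50.2 and 59.0 CPM in late pregnancy and at 48.9, 53.9 and 62.4 CPM in lactation. These ranges overlapped through most of their length, and the change of 0.12 ± 0.07 (SE, 95% interval -0.01 to 0.25) did not pass (edgeR adjusted p = 0.120). Leaving out the library of LM pool 1 in late pregnancy, the highest of that state for TSC2, brought the change to 0.15 and under the threshold (edgeR adjusted p = 0.0350).

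The ratio of TSC1 to TSC2 per kilobase of exon was 0.257 to 0.432 in late pregnancy and 0.393 to 0.563 in lactation, with medians of 0.402 and 0.437. The ranges overlapped, and the mean log2 ratio was higher in lactation by 0.32 (SD 0.27 and 0.21, exact permutation p = 0.0280, adjusted over the 4 ratios 0.0280). This difference did not hold throughout, since p was 0.0749 without HM pool 2 and 0.0719 without MM pool 2 of lactation (exact permutation tests), with log2 differences of 0.26 and 0.28.

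RHEB, the GTPase that switches mTORC1 on, was at 20.2, 22.8 and 25.7 CPM in the lowest, median and highest late pregnancy library and at 26.4, 29.1 and 30.3 CPM in lactation. The states did not overlap but came within 1 CPM of each other. RHEB rose by 0.32 ± 0.06 (SE), or 1.25-fold (edgeR adjusted p = 5.6e-05). This call was lost with limma on quantile-normalized RPKM, where the change was 0.05 (adjusted p = 0.407), and with libraries scaled to PRPF3 and CUL1, the reference genes of the study's RT-qPCR, where it was 0.06 (edgeR adjusted p = 0.399). TSC1 was lost under the scaling to PRPF3 and CUL1 as well, at 0.18 (edgeR adjusted p = 0.136).

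DDIT4, a stress-responsive gene also known as REDD1, varied most between libraries of the same state among the members that rose. It was at 26.5, 35.6 and 46.9 CPM in the lowest, median and highest late pregnancy library and at 41.7, 53.0 and 66.2 CPM in lactation. The ranges overlapped between 41.7 and 46.9 CPM. The change was 0.55 ± 0.13 (SE), or 1.47-fold (edgeR adjusted p = 6.4e-04). Within the libraries whose column names carry lane 7 (4 against 3) the change of DDIT4 was 0.37 and did not pass (edgeR adjusted p = 0.145). Within those of lane 8 (5 against 3) it was 0.71 (edgeR adjusted p = 1.9e-04). Every LM library carried lane 8, so this split was also in part a split by dam nutrition. The descriptions say that each library ran on both lanes, so what the lane number separates is not settled.

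DEPTOR, the inhibitor that binds mTOR directly, was close to undetected, with 0 to 6 exon reads in any library. It stood at no more than 0.228 CPM in late pregnancy and 0.261 CPM in lactation, and both lactation libraries of the LM group were at 0 reads. A difference between the states was not detectable at this depth, and no fold change is given.

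Downstream, EIF4EBP1 was the member with the largest change and the only 1 of the 9 that fell. It encodes 4E-BP1, which binds the cap-binding factor eIF4E and blocks translation initiation until mTORC1 phosphorylates it. The late pregnancy libraries ran from 186.7 CPM through a median of 247.6 CPM to 319.4 CPM, and the lactation libraries from 68.9 CPM through 93.6 CPM to 116.5 CPM. All lactation libraries were below all late pregnancy libraries. The means were 254.3 ± 40.0 CPM (SD, n = 9) and 93.4 ± 15.1 CPM (SD, n = 6), a change of -1.45 ± 0.11 (SE), or 2.73-fold lower in lactation (edgeR adjusted p = 6.5e-10).

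EIF4EBP2, which encodes a second repressor of the same kind, moved the other way, from 20.1 to 31.5 CPM in late pregnancy to 45.5 to 63.8 CPM in lactation, a rise of 1.00 ± 0.09 (SE, edgeR adjusted p = 4.5e-09). Per kilobase of exon, EIF4EBP1 exceeded EIF4EBP2 by 7.17 to 19.2 times in late pregnancy, with a median of 11.5, and by 1.30 to 3.09 times in lactation, with a median of 2.18. The ranges did not overlap, yet EIF4EBP1 remained the more abundant of the pair in all 15 libraries. The mean log2 ratio was lower in lactation by 5.46-fold, a difference of -2.45 (SD 0.42 and 0.40, exact permutation p = 0.0002, adjusted over the 4 ratios 0.0004).

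RPS6KB1, which encodes S6 kinase, was at 27.7, 28.8 and 30.3 CPM in the lowest, median and highest late pregnancy library and at 26.2, 28.6 and 34.7 CPM in lactation. The late pregnancy values lay wholly inside the lactation range, and the change of 0.01 ± 0.06 (SE) did not pass (edgeR adjusted p = 0.984), with a 95% interval of -0.10 to 0.12. Its paralogue RPS6KB2 rose by 0.52 ± 0.09 (SE, edgeR adjusted p = 2.4e-05), from 16.0 to 24.2 CPM in late pregnancy to 24.6 to 32.3 CPM in lactation. The ratio of RPS6KB1 to RPS6KB2 per kilobase of exon was 0.848 to 1.34 in late pregnancy and 0.587 to 0.894 in lactation. Only the LM pool 1 library of late pregnancy lay within the lactation range, and the mean log2 ratio differed by -0.51 (SD 0.18 and 0.22, exact permutation p = 0.0006, adjusted over the 4 ratios 0.0008).

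**Figure D2:**
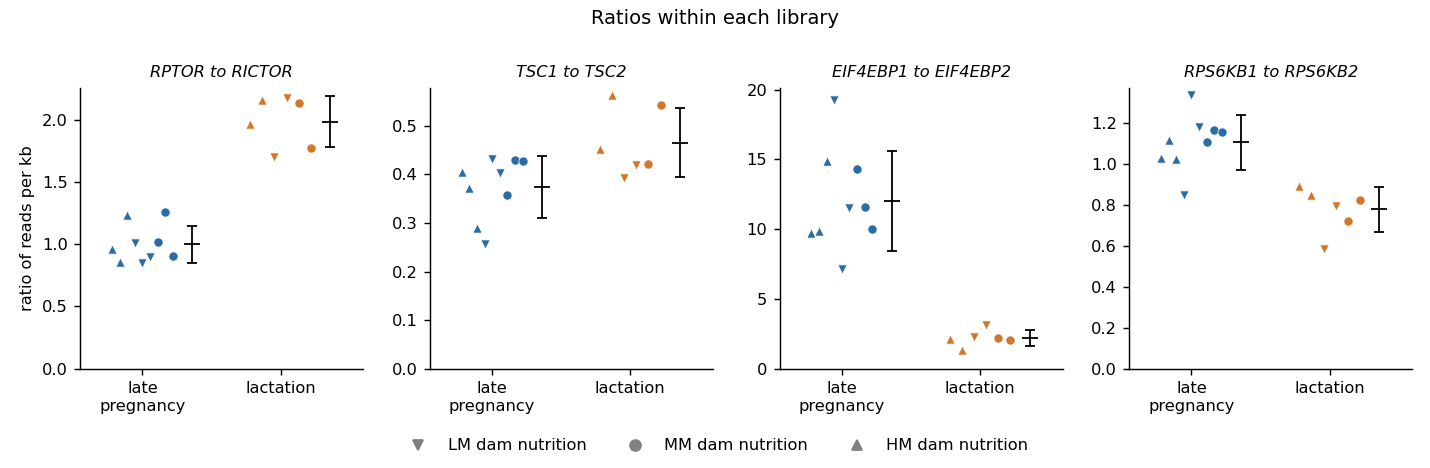
Ratio of reads per kilobase of exon between paired components in each library (linear axis from 0), with the mean and SD of each state as bars and marker shape showing dam nutrition. RPTOR to RICTOR runs from 0.848 to 1.26 in late pregnancy and from 1.70 to 2.17 in lactation, EIF4EBP1 to EIF4EBP2 is lower in all 6 lactation libraries, and the other pairs overlap.

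How far the members rose or fell depended on how libraries were scaled. A scaling factor moves all genes of a library alike, so subtracting the all-gene median cancels most of it by construction. Little movement on that relative scale is therefore no test of stability. limma on quantile-normalized RPKM, which does not scale by a single factor per library, moved the relative values most (RHEB 0.10 against 0.35 with TMM). With library size alone, the median change over all genes was -1.94, and all 9 members were called lower. Scaling by the upper quartile put that median at -0.18 and scaling to PRPF3 and CUL1 at -0.29. Relative to the all-gene median under each of 7 fits, which also included RLE, TMM without the milk protein genes and limma on quantile-normalized RPKM, MTOR stood at 0.51 to 0.63, RPTOR at 0.94 to 1.15, TSC1 at 0.40 to 0.47 and DDIT4 at 0.38 to 0.59. On the same relative scale, RHEB stood at 0.10 to 0.35, RICTOR at 0.15 to 0.19, TSC2 at 0.08 to 0.15 and EIF4EBP1 at -1.69 to -1.41. RPS6KB1 was the member nearest to the bulk of genes, at -0.05 to 0.04.

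**Figure D3:**
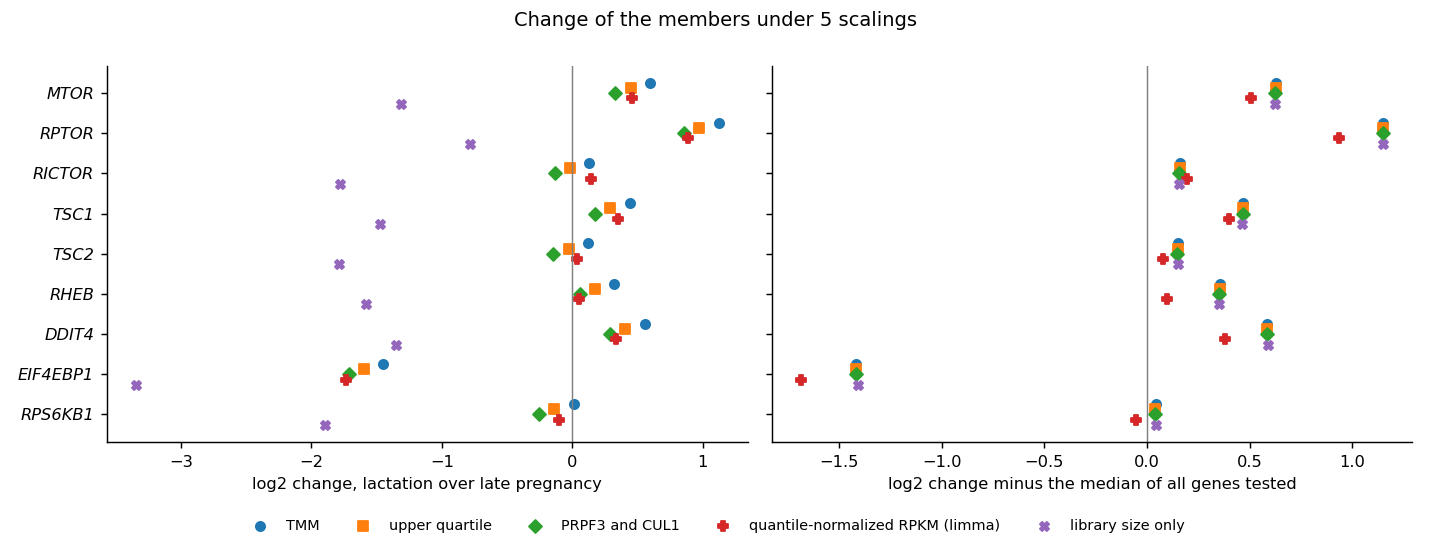
Left, log2 change of each tested member from late pregnancy to lactation under 5 scalings; right, the same change less the median of all genes tested under that scaling. On the left the library size values lie below 0 for all 9 members, and on the right RPTOR stays between 0.94 and 1.15 and EIF4EBP1 between -1.69 and -1.41.

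Levels were compared between members as CPM per kilobase of annotated exon. The order therefore depends on the annotated exon length, which was shortest for RHEB, at 503 bases. Whether the annotation was complete was not checked. In both states EIF4EBP1 was highest, with medians of 274.5 in late pregnancy and 103.7 in lactation, followed by RHEB (45.4 and 57.8), DDIT4 (20.8 and 31.0), RPS6KB1 (12.8 and 12.7), TSC2 (8.82 and 9.49) and MTOR (5.77 and 8.53). These 6 did not overlap with their neighbours in late pregnancy, and in lactation TSC2 and MTOR did, with TSC2 higher in 5 of 6 libraries. RPTOR moved in the order. In late pregnancy it was next to last (2.55) and not separable from RICTOR (2.70), which was higher in 5 of 9 libraries, and in lactation it stood at 5.59, above TSC1 (4.27) in 6 of 6 libraries and above RICTOR (2.77). DEPTOR was last in both states, at 0.129 and 0.144. In CPM, without division by exon length, RHEB stood below RPS6KB1 in late pregnancy (medians 22.8 and 28.8).

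The rest of the pathway was examined in 7 lists of 74 genes, of which 69 were found in the table and 66 could be tested. Of these, 30 were higher and 16 lower in lactation and 20 did not pass. The share called was close to the 68.4% of all genes. Over all genes tested, 33.1% were higher and 35.2% lower, which is also the background for the counts of each list below. Their median change was 0.17, against -0.03 over all genes tested. Scaled to PRPF3 and CUL1 the split was 21 higher and 28 lower, so the balance of directions was not stable to the scaling.

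Among the other subunits and chaperones of the complexes, 2 were higher and 1 lower of 5 tested. PRR5L, a partner of mTORC2, rose by 2.08 ± 0.19 (SE, edgeR adjusted p = 1.1e-08) from a median of 0.961 CPM to 4.32 CPM, and MLST8, a subunit of both complexes, fell by 0.44 ± 0.12 (SE, edgeR adjusted p = 0.00276). TBC1D7, the third subunit of the TSC complex, was the sole gene of its list that could be tested and rose by 0.68 ± 0.10 (SE, edgeR adjusted p = 4.7e-06). Of 15 tested kinases and phosphatases that act on the TSC complex, 7 were higher and 3 lower. RPS6KA3, a kinase of the ERK pathway, rose by 2.13 ± 0.08 (SE, edgeR adjusted p = 5.5e-15), and PRKAG2, a regulatory subunit of the energy sensor AMPK, fell by 0.66 ± 0.10 (SE, edgeR adjusted p = 5.5e-06).

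The genes through which amino acids reach mTORC1 at the lysosome were mixed. For the Rag GTPases, the Ragulator complex and their partners, 5 of 13 were higher and 2 lower, from LAMTOR2 at 1.58 ± 0.08 (SE, edgeR adjusted p = 9.8e-13) to RRAGB at -1.21 ± 0.16 (SE, edgeR adjusted p = 1.3e-06). In GATOR1, GATOR2 and KICSTOR, complexes that restrain or release the Rag GTPases, 8 of 11 were higher and 1 lower, against 33.1% and 35.2% of all genes tested. SEC13, which also serves in protein export from the endoplasmic reticulum, was at 0.84 ± 0.05 (SE, edgeR adjusted p = 1.6e-11) and WDR59 at -0.20 ± 0.08 (SE, edgeR adjusted p = 0.0320). Of 6 genes listed as amino acid sensors 2 were higher and 3 lower. Of the 3 sestrins, a family of stress-induced proteins that includes sensors of leucine, 1 rose and 2 fell. SESN2 rose by 2.70 ± 0.35 (SE, edgeR adjusted p = 9.1e-07) from 0.183 to 0.794 CPM in late pregnancy to 1.57 to 9.23 CPM in lactation. Its late pregnancy levels were low and its lactation libraries spread widely (SD 2.86 CPM), so the size of this rise is imprecise. SESN3 fell by 1.57 ± 0.14 (SE, edgeR adjusted p = 6.0e-09), and SESN1, named after its values were seen, fell by 1.53 ± 0.17 (SE, edgeR adjusted p = 1.5e-07).

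Downstream substrates and effectors numbered 15 tested genes, of which 5 were higher and 6 lower. LPIN1, a phosphatidate phosphatase of triacylglycerol synthesis whose protein mTORC1 phosphorylates, rose by 6.74 ± 0.21 (SE, edgeR adjusted p = 8.0e-16), from 1.08 to 2.67 CPM in late pregnancy to 104.3 to 299.1 CPM in lactation. PDCD4, a translational repressor that S6 kinase marks for degradation, fell by 2.13 ± 0.09 (SE, edgeR adjusted p = 4.8e-14), from 396.9 to 562.6 CPM to 96.7 to 129.8 CPM. EIF4EBP1 thus shared its direction with the 6 genes of this list called lower, PDCD4 among them, and not with EIF4EBP2.

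**Figure D4:**
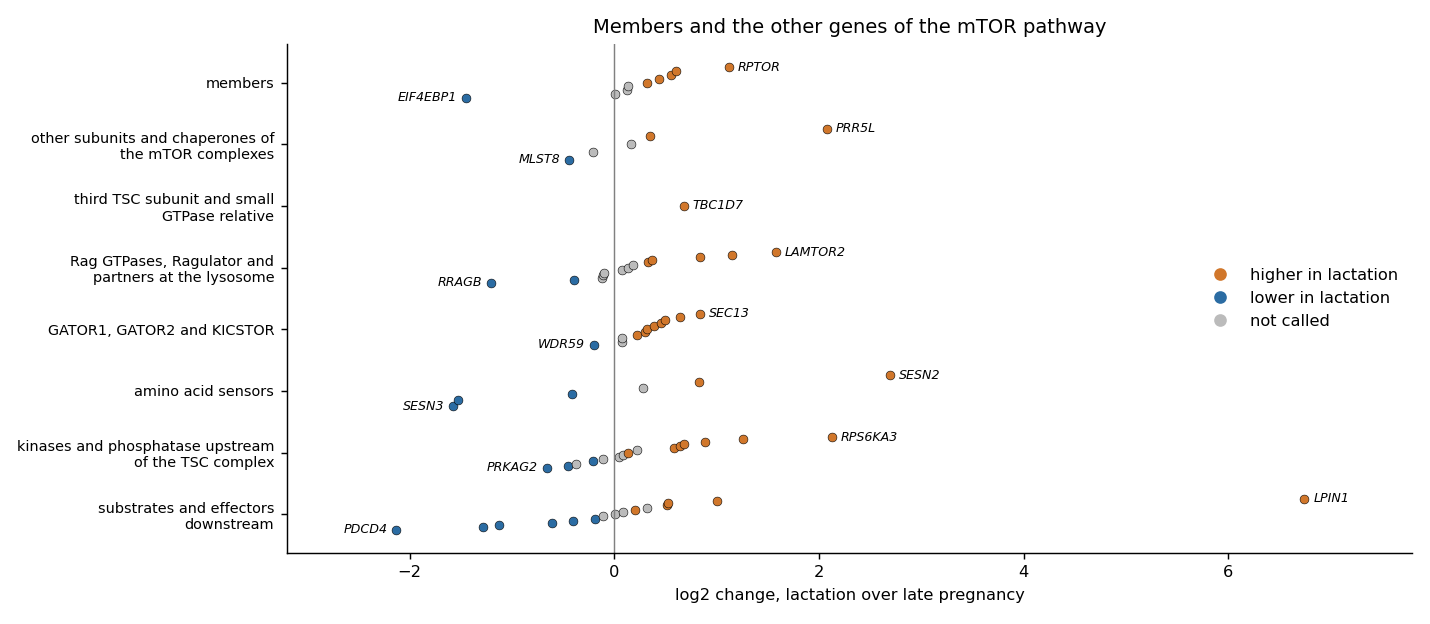
Log2 change from late pregnancy to lactation (edgeR, TMM) of the members and of the other pathway genes by list, coloured by call, with the lowest and highest gene of each list named. Members run from -1.45 (EIF4EBP1) to 1.12 (RPTOR), and the largest changes of the lists are LPIN1 at 6.74 and PDCD4 at -2.13.

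Reads that fell inside a gene but outside its exons were tested in the same way and scaled among themselves, since unspliced RNA contributes to them. Of the 9 members that could be tested on them, 3 were higher in lactation (MTOR, RPTOR and TSC1) and 1 lower (EIF4EBP1). Of all 10344 genes tested on intron reads, 58.0% were called, 29.0% higher and 29.0% lower. RPTOR intron reads changed by 1.80 ± 0.13 (SE, edgeR adjusted p = 3.5e-11). MTOR intron reads changed by 0.71 ± 0.09 (SE, edgeR adjusted p = 7.4e-07), TSC1 by 0.71 ± 0.16 (SE, edgeR adjusted p = 5.1e-04) and EIF4EBP1 by -1.30 ± 0.14 (SE, edgeR adjusted p = 3.1e-08). The states did not overlap on intron reads for RPTOR, MTOR and EIF4EBP1, and the share of all genes for which this held was not counted.

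RHEB, called on exon reads, did not pass on intron reads, with a change of 0.16 ± 0.10 (SE, edgeR adjusted p = 0.153), though it did with the library sizes of the exon reads (0.24, edgeR adjusted p = 0.0469). DEPTOR had 2 to 23 intron reads and changed by 0.68 ± 0.37 (SE, edgeR adjusted p = 0.116), and DDIT4, with 1 to 5 intron reads, was not tested. The share of RPTOR reads that lay outside exons was 21.6 to 28.8% in late pregnancy and 30.2 to 45.4% in lactation, without overlap and with no test made. For the other 9 members this share overlapped between the states. Pooled over the reads of all genes with a transcript, it was 14.4 to 16.2% before birth and 5.85 to 13.2% during lactation. The pooled share weights each gene by its reads, and milk protein genes held 71.3 to 75.8% of counted reads in lactation. It therefore does not describe a typical gene and is no background for the share of a single member. The library kit does not mark strand, so reads of a gene that overlaps an intron cannot be told apart from those of the member.

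**Figure D5:**
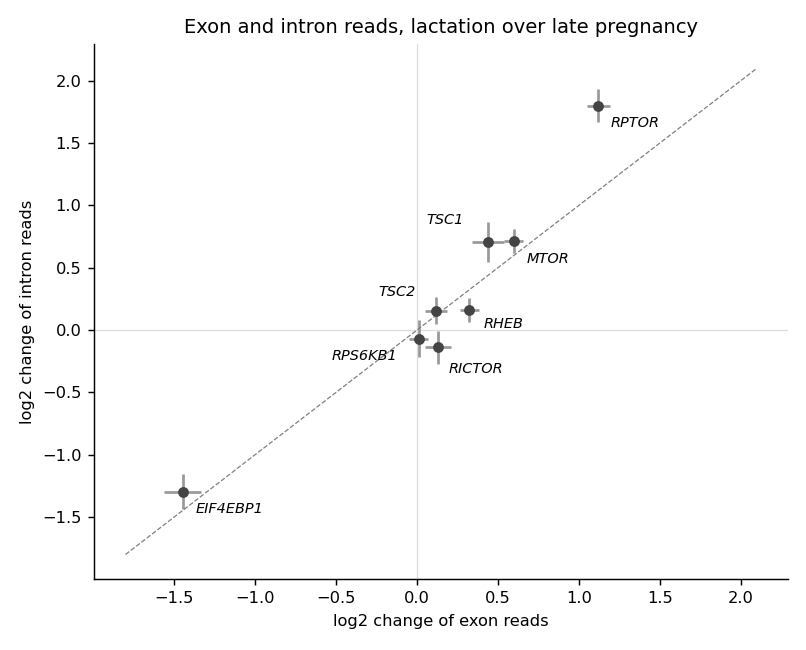
Log2 change of intron reads (vertical axis) against that of exon reads (horizontal axis) for the 8 members tested on both, with SE bars and the line of equality dashed. RPTOR lies above the line, at 1.80 on introns and 1.12 on exons, and EIF4EBP1 is low on both, at -1.30 and -1.45.

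Dam nutrition was compared in the 9 late pregnancy libraries. No member was called (edgeR, 9 tested, smallest adjusted p = 1.0), none had an unadjusted p under 0.05, and 0% of the 13747 genes tested were called, with 4.15% at an unadjusted p under 0.05 and 20 genes called by DESeq2. RPTOR showed the largest contrast of any member, at 13.7 ± 0.787 CPM in LM, 15.6 ± 1.16 CPM in MM and 14.8 ± 2.01 CPM in HM (SD, n = 3 each). LM less MM was -0.19 ± 0.11 (SE) on the log2 scale. EIF4EBP1 was at 253.8 ± 66.3 CPM in LM, 251.3 ± 23.6 CPM in MM and 258.0 ± 37.5 CPM in HM (SD, n = 3 each), so its groups lay closer together than their pools. The change between the states did not pass the test for a difference between dam nutrition groups in any member (edgeR interaction, smallest adjusted p = 0.811), and 0% of 14073 genes were called, with 6.49% at an unadjusted p under 0.05 and 14 genes called by DESeq2.

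Within the states, libraries also varied together. After each state's mean was subtracted, the members that varied most alike over the 15 libraries were MTOR and RPTOR (Pearson's r = 0.744 of log2 CPM), followed by EIF4EBP1 and DDIT4 (r = 0.629), and the most opposite were TSC1 and EIF4EBP1 (r = -0.621). The genes most like EIF4EBP1 on this measure were MRPL14 (r = 0.916), TMEM141 (r = 0.906), ADCK5 (r = 0.901), POLR2H (r = 0.899) and LOC101102096 (r = 0.895). MRPL14, a protein of the mitochondrial ribosome, rose between the states by 0.59, and POLR2H, a subunit of the RNA polymerases, and ADCK5 fell by 0.29 and 0.45 (edgeR adjusted p = 1.2e-07, 0.0025 and 3.1e-04). LOC101102096 fell by 1.03 (edgeR adjusted p = 1.4e-09), and TMEM141 was not called, at 0.29 (edgeR adjusted p = 0.059). These correlations are descriptions over pools that share their library depth and scaling factor.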

How the data were processed

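Polyadenylated RNA of 15 pools was sequenced as paired reads of 100 bases on an Illumina instrument. The authors mapped them to the sheep genome in CLC Genomics Workbench and deposited 1 table for all libraries. Its columns hold the authors' raw counts for each gene, taken over the exons or over the whole gene and including or leaving out reads with several positions. The deposited RPKM divide those counts by exon length and reads on genes, and the deposited quantile-normalized RPKM give every library the same distribution. Columns with the authors' fold changes and p-values were not used.

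Exon counts (whole-gene counts for the 5583 features without a transcript) were filtered with filterByExpr, scaled by TMM and tested with the quasi-likelihood F-test of edgeR 4.0.16 in R 4.3.3, without covariates, with Benjamini-Hochberg adjustment over all genes tested. The threshold was 0.05. DESeq2 1.42.0 and limma 3.58.1 on log2(quantile-normalized RPKM + 1) were alternatives, as were other scalings and filters, covariates for dam nutrition and lane, a replicate block and leaving out each library. Scaling to PRPF3 and CUL1 was chosen after seeing the data. Ratios were tested by an exact two-sided permutation of the states over the 15 libraries. Intron reads are whole-gene reads less exon reads. Principal components used the 5000 most variable genes. On simulated data, 100.0% of 2-fold rises, 78.0% of 1.5-fold rises and, for falls of the same sizes, 100.0% and 85.7% were recovered between states among 13345 genes. Between nutrition groups, among 13747 genes, these were 86.0% and 56.0% of rises and 79.6% and 26.0% of falls. Of the genes called, 4.84% between states and 6.11% between nutrition groups were false. The simulation changed 200 genes, for nutrition in the LM group alone. It gave every gene the same dispersion and held no shift in the milk protein share. These rates are therefore not the power of the tests on the real libraries.

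All members were described. From each pathway list the called genes with the largest rise and fall were named, with the partner gene of each ratio and the 5 genes most like EIF4EBP1. Sestrins SESN2 and SESN3 fall under this rule. Members and lists were chosen with earlier results of these data known. Listed genes were matched by symbol, and CASTOR2 and RPS6 among the pathway genes by gene ID through the RefSeq table of a later assembly. MAPKAP1, PRR5, EIF4EBP3, SAMTOR and KICS2 were not analysed here.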

Additional observations from a re-analysis of the deposited data

How the results depend on the processing

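Most values kept their direction and their side of the threshold, and those that did not are given here. With library size only, 9 members were called lower and 0 higher, and 62 pathway genes lower and 3 higher. The changes then were -1.31 for MTOR, -0.79 for RPTOR, -1.78 for RICTOR, -1.48 for TSC1, -1.78 for TSC2, -1.58 for RHEB, -1.89 for RPS6KB1 and -1.35 for DDIT4. By construction this scaling leaves the reads taken by milk protein genes uncorrected. Scaled to PRPF3 and CUL1, 2 members were lower and 3 higher, and 28 pathway genes lower, with RICTOR at -0.13, TSC2 at -0.15 and RPS6KB1 at -0.25. Upper quartile scaling called 2 members lower, with RICTOR at -0.019, TSC2 at -0.029 and RPS6KB1 at -0.14 (edgeR adjusted p = 0.0356). RPS6KB1 was also negative, without a call, with no filter (-0.039), with at least 10 reads in every library (-0.073), in lane 8 alone (-0.063), with limma (-0.098) and on leaving out a library (-0.036 to 0.041). On intron reads it was 0.0092 with exon library sizes and -0.17 to 0.00 on leaving out a library, from 0.0018 without HM pool 1 to 0.0001 without HM pool 2 of lactation.

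Leaving out each library gave 5 to 6 members higher, 1 lower and, on introns, 3 to 4 higher, and DEPTOR intron reads were called without MM pool 2 of lactation (0.92, edgeR adjusted p = 0.0350). The log2 difference in the TSC1 to TSC2 ratio ran from 0.26 to 0.37.

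Pool numbers recur across states, but same-numbered pools did not deviate together (correlations -0.028 to 0.092), so they were not taken as pairs. With a replicate block of dam nutrition and pool number, 5 members were higher and 1 lower, and the TSC1 to TSC2 difference was 0.32 (exact sign-flip permutation p = 0.0625). The cause of these shifts was not tested. Low reads limit DEPTOR, and pooling limits what the spread between libraries says of single ewes.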
